A study of Mus musculus with 4 samples.

Results

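The lactate dehydrogenase and monocarboxylate transport genes were examined as a set of 7 genes among the 24062 genes counted in E13.5 mouse retinas. They were chosen by name: the dehydrogenase subunit genes *Ldha* and *Ldhb*, the transporter genes *Slc16a1*, *Slc16a3*, *Slc16a7* and *Slc16a8*, and *Bsg*, which encodes a partner protein of the transporters. All 7 were in the count table, and 6 of them had enough reads to be tested, the exception being *Slc16a8*. RNA-seq compared 2 wildtype libraries with 2 libraries from *Nrf1* f/f;Six3-Cre embryos, labelled Nrf1-CKO, to ask which genes depend on the transcription factor Nrf1 (nuclear respiratory factor 1) in the embryonic retina. All embryos were of a mixed C57BL/6 129 background and were taken at E13.5. Cre recombinase under the Six3 promoter acts in retinal progenitor cells (RPCs), beginning in the central retina, and removes exon 4 of *Nrf1*. The study's methods describe pooling 18 retinas (9 pairs) from several littermates and a duplicated experiment, without stating the number of separate pools. Single animals were thus not resolved, and the retina was sampled as a whole.

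Lactate dehydrogenase is a tetramer that interconverts pyruvate and lactate while NADH and NAD+ are exchanged. The subunit made from *Ldha* favours the formation of lactate at the end of glycolysis, and the subunit made from *Ldhb* favours its oxidation to pyruvate. Lactate and pyruvate cross the plasma membrane with a proton through monocarboxylate transporters, which reach the membrane only with a chaperone glycoprotein such as basigin. The retina is known for converting much of its glucose to lactate even when oxygen is present.

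Reads counted on genes ranged from 74577660 to 85933945 per library. *Nrf1* itself, the targeted gene, was read 9052 and 7789 times in wildtype libraries and 8594 and 8284 times in those of the mutant. Its log2 fold change was -0.03, with a standard error (SE) of 0.07 and an adjusted p = 0.794 in edgeR's quasi-likelihood test with the Benjamini-Hochberg method. These are counts over the whole gene, so the loss of 1 exon could not be checked with them. Among 15762 genes tested, 1268 were lower and 2024 higher in the mutant by the limits of the study's methods, which ask for 1.4-fold or more and an adjusted p no greater than 0.2. A gene is called lower or higher here only if it passed both limits.

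*Ldha*, which encodes the lactate-forming subunit, and *Slc16a3*, which encodes the lactate exporter MCT4, were both called lower in the mutant retinas. No gene of the set was called higher. *Slc16a1*, which encodes the lactate and pyruvate carrier MCT1, was higher in both mutant libraries, with a fitted change slightly below 1.4-fold. Of the 6 genes tested, 2 were called lower, beside 8.04% of all tested genes, and 0 were called higher, beside 12.8%. Either direction counted, 2 of 6 compare with 20.9% of all tested genes. The *Ldha* promoter is known for elements bound by hypoxia-inducible factors and by Myc, and Nrf1 is known to bind a palindrome near transcription starts. Of the 7 genes, 5 had a promoter entry in the RefSeq table. Shown are 250 bases before each RefSeq transcription start (GRCm38.p6), printed 5′ to 3′ on the strand of the gene, for both called genes, for *Slc16a1*, which differed in the other direction, and for *Ldhb*, the paralog of *Ldha*. The core of the hypoxia response element is ACGTG or GCGTG, read as CACGT or CACGC where it lies on the other strand. Capitals mark its ACGTG form and the Nrf1 motif, which is GCGCA, any base N and GCGC, searched on both strands. ACGTG and its reverse overlap wherever CACGTG occurs, which is also the E-box bound by Myc.
Ldha, first start, chr7:46845554-46845803, plus strand: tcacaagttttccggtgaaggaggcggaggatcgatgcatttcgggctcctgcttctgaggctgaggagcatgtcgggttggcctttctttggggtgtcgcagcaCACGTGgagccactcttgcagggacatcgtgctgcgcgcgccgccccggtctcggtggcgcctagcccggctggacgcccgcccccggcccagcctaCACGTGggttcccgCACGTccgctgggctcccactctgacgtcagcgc
Ldha, second start, chr7:46846832-46847081, plus strand: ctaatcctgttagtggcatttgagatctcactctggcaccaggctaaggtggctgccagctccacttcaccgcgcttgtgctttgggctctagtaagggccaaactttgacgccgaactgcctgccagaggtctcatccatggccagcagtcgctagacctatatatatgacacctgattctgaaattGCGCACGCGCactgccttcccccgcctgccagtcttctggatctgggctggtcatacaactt
Slc16a3, chr11:120948817-120949066, plus strand: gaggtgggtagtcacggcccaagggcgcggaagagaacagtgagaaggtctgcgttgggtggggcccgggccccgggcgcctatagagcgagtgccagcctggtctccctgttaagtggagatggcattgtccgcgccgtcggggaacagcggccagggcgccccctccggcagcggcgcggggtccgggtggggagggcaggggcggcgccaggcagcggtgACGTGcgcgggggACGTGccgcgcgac
Slc16a1, chr3:104638414-104638663, plus strand: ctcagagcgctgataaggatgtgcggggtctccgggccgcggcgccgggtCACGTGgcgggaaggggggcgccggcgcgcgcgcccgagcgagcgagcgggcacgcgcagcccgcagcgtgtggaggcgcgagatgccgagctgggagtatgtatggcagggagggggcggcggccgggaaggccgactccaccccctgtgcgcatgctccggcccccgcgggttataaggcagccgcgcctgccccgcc
Ldhb, chr6:142507958-142508207, minus strand: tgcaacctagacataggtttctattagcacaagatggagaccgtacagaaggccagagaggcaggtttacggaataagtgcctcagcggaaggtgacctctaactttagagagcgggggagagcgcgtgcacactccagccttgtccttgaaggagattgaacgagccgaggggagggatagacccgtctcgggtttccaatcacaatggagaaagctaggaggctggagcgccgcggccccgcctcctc

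The window before the first start of *Ldha* held ACGTG or CACGT at 3 places, at -145 to -140, -48 to -43 and -34 to -30 from the start, and the first 2 of these read CACGTG. *Slc16a3* held ACGTG at 2 places, from -27 and from -14, and *Slc16a1* held CACGTG once, at -200 to -195. In the GENCODE annotation used for exon lengths, *Ldha* and *Slc16a3* begin upstream of their windows, which thus lie within the gene spans. Of the *Slc16a3* window, 14 bases are annotated there as untranslated region. Of 32851 such windows in the RefSeq table, 16.6% held ACGTG on either strand. The Nrf1 motif was found before the second start of *Ldha* and in none of the other 5 windows, as GCGCACGCGC at -62 to -53, and 3.74% of all windows held it. Only exact matches were searched for, so near matches were not counted. The GCGTG form, held by 28.2% of all windows, lay once before *Ldhb* (-126 to -122), at 2 places before *Slc16a1*, and once before the second start of *Ldha*, inside the Nrf1 motif. *Ldhb* thus held the hypoxia element core in 1 form but not ACGTG or the Nrf1 motif. *Slc16a8* had a window without any of the 3 motifs, and *Slc16a7* and *Bsg* were not shown. These matches describe letters, and no binding was measured.

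*Ldha* lies on chromosome 7 of GRCm38 from 46841475 to 46855627 on the plus strand. The wildtype libraries held 46394 and 39249 of its reads, and the mutant libraries 27260 and 23710. Scaled to CPM, a count relative to library size after TMM scaling in edgeR, the wildtype levels were 529.8 and 529.2 CPM and the mutant levels 328 and 287 CPM. Both mutant libraries were far below both wildtype libraries, which differed from each other by less than 1 CPM. The mean fell from 529 ± 0.413 to 307 ± 29.4 CPM (SD, n = 2), to 58.0% of the wildtype level. On the log2 scale this was a change of -0.78 (SE 0.09, 95% interval -0.99 to -0.58, adjusted p = 0.000439 by edgeR's quasi-likelihood test), and 5.96% of all tested genes had a change as low or lower. *Ldha* shares 1.28% of its 100-base stretches with the pseudogene *Ldha-ps2* and a further gene model, *Gm5452*.

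*Ldhb*, on chromosome 6 from 142490249 to 142507957 on the minus strand, encodes the subunit that favours lactate oxidation. Its wildtype levels were 74.7 and 79.0 CPM and its mutant levels 68.2 and 70.4 CPM. The genotypes did not overlap, but they lay close together. A log2 difference of -0.15 (SE 0.08, 95% interval -0.32 to 0.02) did not pass the test (adjusted p = 0.206, edgeR). *Ldhb* shares 8.80% of its 100-base stretches with a further gene model, *Gm5514*.

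*Slc16a3*, on chromosome 11 from 120948480 to 120960868 on the plus strand, was counted 6073 and 5179 times in wildtype retinas and 2772 and 2557 times in mutant retinas, or 69.3, 69.8, 33.4 and 30.9 CPM. MCT4 has a low affinity for its substrates and is typical of cells that export lactate. Both mutant libraries were far below both wildtype libraries, and replicates lay close together. The mean fell from 69.6 ± 0.340 to 32.1 ± 1.74 CPM (SD, n = 2), to 46.2% of wildtype. This change of -1.11 on the log2 scale (SE 0.08, 95% interval -1.29 to -0.94, adjusted p = 9.9e-05 by edgeR's quasi-likelihood test) was the lowest of the 6 genes, and 3.49% of all tested genes were as low.

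*Slc16a1*, on chromosome 3 from 104638668 to 104658462 on the plus strand, differed in the opposite direction. The sense intronic gene models *Gm43581* and *Gm43585* lie over 2864 and 1403 bases of its span. Its reads numbered 5678 and 4122 in wildtype retinas against 6756 and 7081 in mutant retinas, or 64.8, 55.6, 81.3 and 85.6 CPM. Both mutant libraries were above both wildtype libraries, and the wildtype libraries differed from each other by more than the mutant libraries did. The mean was 60.2 ± 6.55 CPM in the wildtype and 83.5 ± 3.01 CPM in the mutant, 139% of wildtype. The log2 difference was 0.47 (SE 0.09, 95% interval 0.26 to 0.68), with an adjusted p of 0.00653 by edgeR. This passed the limit on p, as 39.9% of all tested genes did at any fold, and missed the limit on fold, which is 0.49 on the log2 scale. The fold limit was passed with scaling by upper quartiles (0.51), without wildtype replicate 1 (0.59) and without Nrf1-CKO replicate 1 (0.51).

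*Slc16a7* encodes MCT2, a carrier of high affinity typical of neurons that take up lactate. It lies on chromosome 10 from 125219270 to 125389465 on the minus strand and was scarce, with 258 and 229 reads per wildtype library and 253 and 178 per mutant library. The genotypes overlapped, and a log2 difference of -0.21 (SE 0.26, 95% interval -0.81 to 0.38) did not pass the test (adjusted p = 0.616, edgeR). Its direction rested on Nrf1-CKO replicate 2, without which the value was 0.014. Gene models on the opposite strand, *Gm45604* and *Gm47862*, lie over 1768 and 927 bases of the gene's span (introns included), and reads from such overlaps cannot be assigned without strand.

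*Slc16a8* encodes MCT3, the transporter of the retinal pigment epithelium. Wildtype libraries held 6 and 6 reads and mutant libraries 3 and 8, too few to be tested, and its 3748 bases on chromosome 15 from 79251014 to 79254761 are fully overlapped by *Gm49486* on the opposite strand. No fold change is given for *Slc16a8*.

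*Bsg* encodes basigin, the chaperone that carries MCT1, MCT3 and MCT4 to the membrane, and lies on chromosome 10 from 79704491 to 79711969 on the plus strand. Its wildtype levels were 191 and 192 CPM, and both mutant libraries were at 205 CPM. The groups did not overlap, and the difference was small, at 0.10 on the log2 scale (SE 0.07, 95% interval -0.07 to 0.27) that did not pass the test (adjusted p = 0.380, edgeR). Both mutant libraries were below both wildtype libraries for 3 of the 6 tested genes (*Ldha*, *Ldhb* and *Slc16a3*), beside 31.6% of all tested genes, and above them for 2 (*Slc16a1* and *Bsg*), beside 30.9%. That is 5 of 6 without overlap, beside 62.5%.

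**Figure D1:**
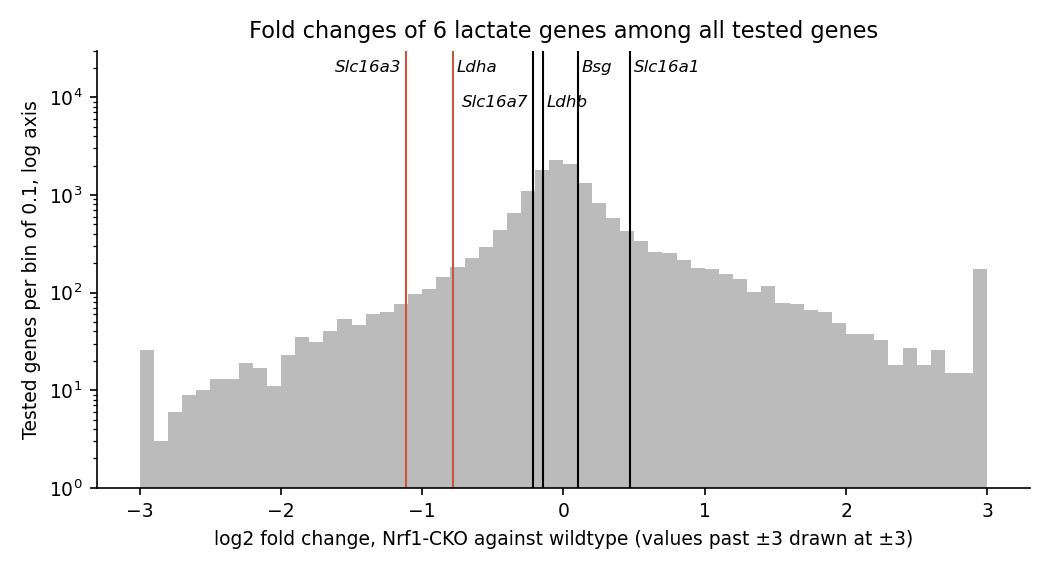
Histogram of the log2 fold changes of 15762 tested genes, mutant against wildtype, with a log axis for the number of genes and a line for each of the 6 tested genes (orange where called). *Slc16a3* at -1.11 and *Ldha* at -0.78 lie in the lower tail, and *Slc16a1* lies at 0.47.

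Levels of different genes were compared as CPM per kilobase of exon. In the wildtype the order was *Ldha* at 160 ± 0.125, *Bsg* at 106 ± 0.632, *Ldhb* at 48.9 ± 1.94, *Slc16a1* at 13.6 ± 1.48 and *Slc16a3* at 13.1 ± 0.0638 CPM per kilobase (SD, n = 2). Here *Slc16a1* and *Slc16a3* differed by less than the spread of *Slc16a1*. With the longest transcript of each gene their wildtype order turned, with *Slc16a3* at 16.1 ± 0.0783 and *Slc16a1* at 13.6 ± 1.48 CPM per kilobase. In the mutant *Slc16a1* reached 18.9 ± 0.681 and *Slc16a3* 6.04 ± 0.327 CPM per kilobase. *Ldha* at 92.9 ± 8.88 was then below *Bsg* at 113 ± 0.108. That order too depended on the length used, since with the longest transcripts *Ldha* was at 169 ± 16.2 and *Bsg* at 134 ± 0.128 CPM per kilobase. *Slc16a7*, at 0.255 in the wildtype and 0.219 in the mutant, and *Slc16a8*, at 0.0328 and 0.0292 CPM per kilobase, were at the bottom in both genotypes.

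**Figure D2:**
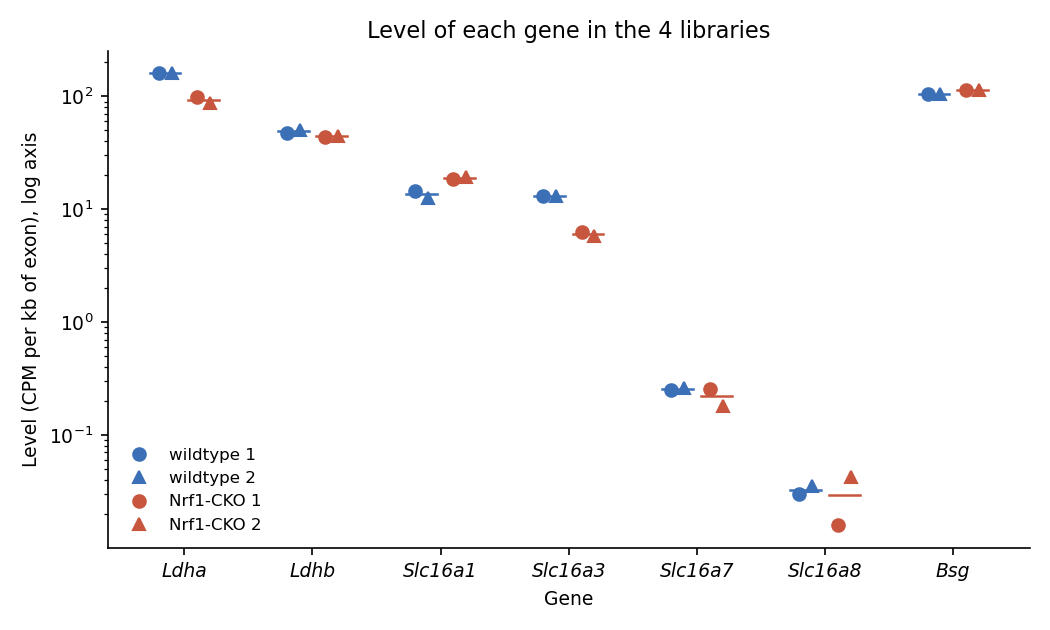
Level of the 7 genes in each library, in CPM per kilobase of exon on a log axis, with circles for replicate 1, triangles for replicate 2 and a line at the mean of each genotype. *Ldha* and *Slc16a3* are lower in both mutant libraries, *Slc16a1* is higher, *Slc16a7* and *Slc16a8* overlap, and *Slc16a8* lies lowest, at 0.0328 and 0.0292 CPM per kilobase.

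The make-up of the transporter transcripts differed between genotypes more than their sum. In wildtype libraries *Slc16a1* made up 52.4% and 48.3% of the summed level of the 4 transporters, and in mutant libraries 73.7% and 76.2%. The mean share was 50.4 ± 2.87% against 75.0 ± 1.76% (SD, n = 2), a difference of 24.6 percentage points. For *Slc16a3* the shares were 46.6% and 50.5% (wildtype) against 25.2% and 22.9% (mutant). Meanwhile the summed level was 28.0 and 26.0 CPM per kilobase in wildtype retinas and 24.9 and 25.4 in mutant retinas. For the dehydrogenases, *Ldhb* held shares of 22.9% and 23.9% in wildtype retinas against 30.5% and 34.1% in mutant retinas, 8.88 percentage points more on average. Here the sum itself was lower, with 208 and 210 CPM per kilobase in wildtype retinas against 143 and 131 in mutant retinas. For each share the exact two-sided permutation test over libraries gave p = 0.333, the smallest value that 2 against 2 libraries allow, so neither could pass 0.05. Relative to the summed transporter level, *Bsg* was at 3.76 and 4.08 times in wildtype retinas and 4.54 and 4.46 times in mutant retinas.

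**Figure D3:**
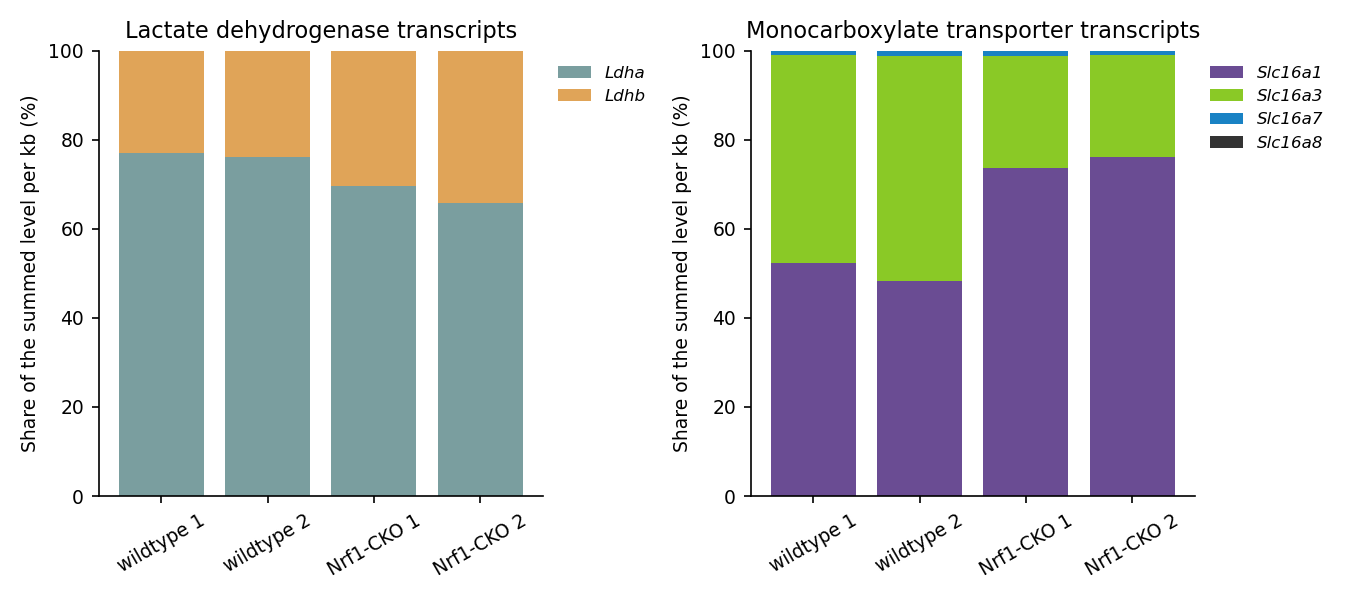
Share of each gene, in percent of the summed level per kilobase, among the dehydrogenase transcripts (left) and the transporter transcripts (right) of each library. *Slc16a1* fills 48.3% to 52.4% of the transporter bar in the wildtype and 73.7% to 76.2% in the mutant, and *Ldhb* fills 22.9% to 23.9% and 30.5% to 34.1% of the dehydrogenase bar.

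Of 18 further dehydrogenase, transporter and lactate genes, 12 were tested, 0 were called lower and 3 higher (beside 8.04% and 12.8% of all tested genes), and their median was 0.16 on the log2 scale beside 0.00073 over all tested genes. *Slc16a10*, an aromatic amino acid transporter, rose from 1.59 ± 0.321 to 4.09 ± 0.0801 CPM (SD, n = 2). *Slc16a6* rose from 4.61 ± 0.186 to 8.68 ± 0.375 CPM and *Slc16a12*, a creatine transporter of the lens and kidney, from 12.2 ± 0.0112 to 22.5 ± 0.557 CPM. Their log2 fold changes were 1.36, 0.91 and 0.89 (adjusted p = 0.00522, 0.00312 and 0.00053, edgeR). On the deposited log2 values the changes of *Slc16a10* and *Slc16a6* were smaller, at 0.55 and 0.52. The other chaperone genes *Emb* and *Nptn* had log2 fold changes of 0.03 and 0.16, and neither passed the test (adjusted p = 0.835 and 0.252, edgeR).

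Among 17 genes that set the fate of pyruvate in mitochondria, 2 were called lower and 2 higher (median 0.03 on the log2 scale). These 4 of 17 are near the 20.9% called over all tested genes. *Pdk1*, a kinase that switches off pyruvate dehydrogenase, had wildtype levels of 91.4 and 84.4 CPM and mutant levels of 56.7 and 56.7 CPM (log2 fold change -0.63, adjusted p = 0.000656, edgeR). *Pdp1*, the phosphatase that reverses this, fell from 33.9 ± 1.17 to 23.2 ± 1.34 CPM (-0.55, adjusted p = 0.00348, edgeR). It was not called on the deposited log2 values (-0.45). The kinase gene *Pdk2* rose from 21.8 and 23.5 CPM to 32.5 and 32.2 CPM (0.51, adjusted p = 0.00458), and this call was lost without wildtype replicate 1 (0.46). *Pdk4* was called higher on 3 and 12 wildtype reads against 28 and 47 mutant reads (2.22 on the log2 scale, SE 0.85, adjusted p = 0.0951), and it no longer passed without wildtype replicate 1 (1.48) or without Nrf1-CKO replicate 2 (1.80), and lay at 3.67 without wildtype replicate 2. The carrier genes that admit pyruvate to mitochondria, *Mpc1* and *Mpc2*, had log2 fold changes of -0.65 and 0.17 and did not pass (adjusted p = 0.275 and 0.473). *Mpc1* shares 19.7% of its 100-base stretches with other genes. None of the 10 tested genes of the NADH shuttles, which offer another route for reoxidizing NADH, was called (median -0.06).

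**Figure D4:**
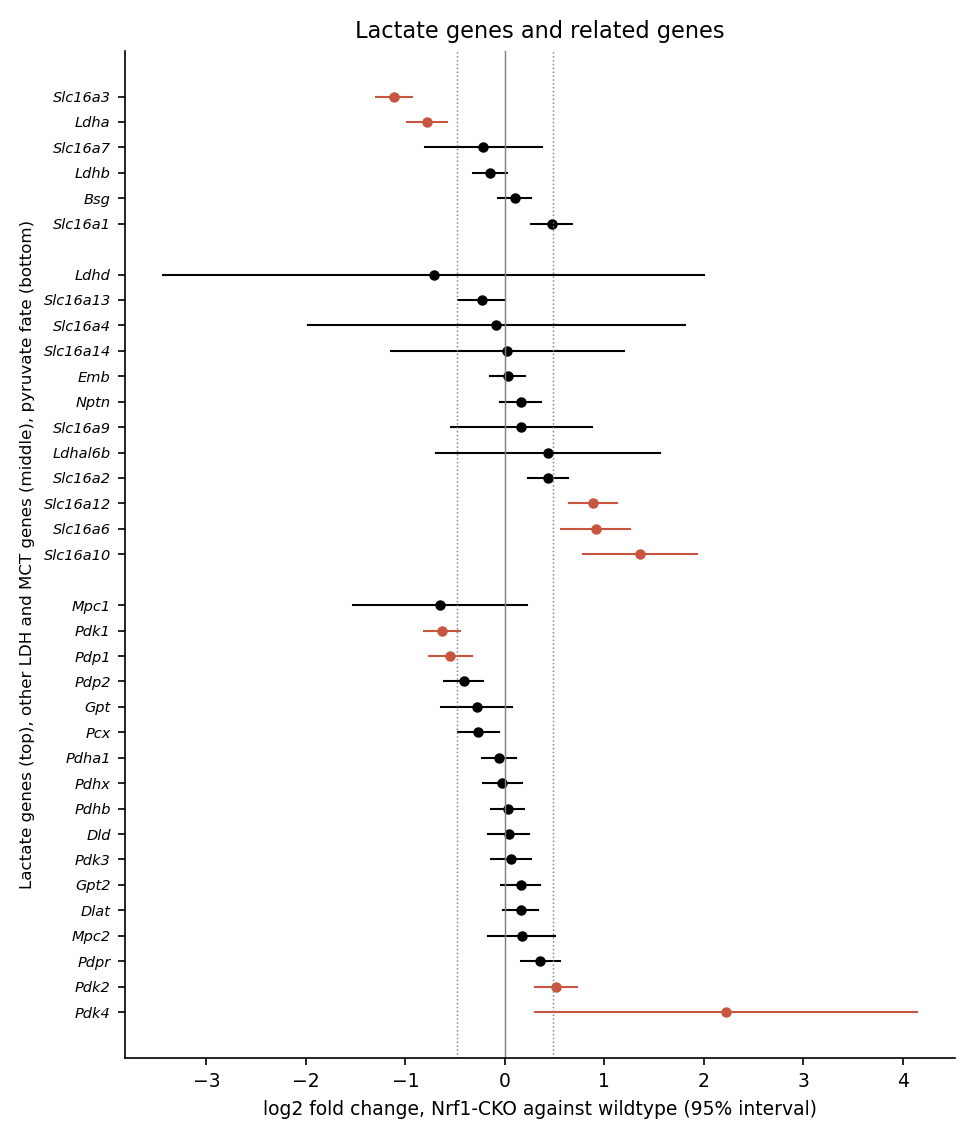
Log2 fold change, mutant against wildtype, with its 95% interval for the tested lactate genes (top), the other dehydrogenase and transporter genes (middle) and the genes of pyruvate fate (bottom), with called genes in orange and dotted lines at 1.4-fold. The called genes of the top group lie at -1.11 and -0.78, those of the middle group between 0.89 and 1.36, and *Slc16a1* at 0.47 lies just inside the dotted line.

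Of 18 glycolysis genes upstream of pyruvate, 4 were called lower and 2 higher (beside 8.04% and 12.8% of all tested genes), and their median was -0.29 on the log2 scale. Within this list *Eno1* and *Gapdh*, which were not called, share 59.0% and 18.2% of their 100-base stretches with other genes. *Pfkp*, a phosphofructokinase, fell by 1.58 on the log2 scale (adjusted p = 0.000104, edgeR), while *Tpi1*, *Pgk1* and the hexokinase gene *Hk1* had log2 fold changes of -0.56, -0.55 and -0.50. *Pgk1* shares 67.0% of its 100-base stretches with other genes, and its call was lost without wildtype replicate 1 or without Nrf1-CKO replicate 2 (-0.48 in both). *Hk1* was no longer called without wildtype replicate 2 (-0.44) or with scaling by upper quartiles (-0.46). The muscle enzyme gene *Pgam2* rose by 3.30 and *Aldoc* by 0.67 (1.05 and 0.31 on the deposited log2 values, where *Aldoc* was not called). *Pgam2* was read 598 and 226 times in mutant retinas against 29 and 51 times in wildtype retinas, and its change lay at 2.43 without Nrf1-CKO replicate 1 and at 3.90 without wildtype replicate 2. The 12 skeletal muscle markers summed to 142 and 39.2 CPM in the same mutant libraries and to 38.9 and 29.7 CPM in the wildtype libraries, of which *Ryr1* alone gave 21.7 and 15.8 CPM in the mutant and 21.4 and 21.9 CPM in the wildtype. The part of muscle transcripts in the value of *Pgam2* was not tested.

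Among 9 transcription regulators tied to these genes, 4 were called higher and 0 lower (median 0.17), beside 12.8% and 8.04% of all tested genes. *Epas1*, which encodes the hypoxia-inducible factor HIF-2α, rose from 9.08 to 19.9 CPM on average (1.13 on the log2 scale, adjusted p = 0.000543, edgeR). *Myc*, *Ppargc1a* and *Ppargc1b* rose by 0.80, 0.80 and 0.96 on the log2 scale. On the deposited log2 values their changes were smaller, at 0.64, 0.52 and 0.45, where *Ppargc1b* was not called. *Hif1a*, whose protein HIF-1α is known to act on *Ldha*, *Slc16a3* and *Pdk1*, had a log2 fold change of -0.13 (adjusted p = 0.267, edgeR).

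The profiles over the 4 libraries closest to that of *Ldha* were those of *Ddx25*, *Etv5* and *Egflam*, at distances of 0.0269, 0.0352 and 0.0377 on centred log2 CPM, among 11321 genes with a mean of at least 5 CPM. For *Slc16a3* they were *Fdps*, *Snap91* and *Fdft1*, at 0.0511, 0.0644 and 0.0655. With only 4 libraries many genes share such a profile, 313 lying within 0.25 of *Ldha* and 129 within 0.25 of *Slc16a3*.

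Marker transcripts of several cell types differed between the genotypes, and in bulk samples fewer cells of a type and less RNA per cell cannot be told apart. The counts of called markers below stand beside 8.04% called lower and 12.8% called higher over all tested genes. Of 12 progenitor markers, 3 were called lower (*Ccnd1*, *Hes5* and *Fgf15*), and their summed level was 8274 to 8914 CPM in the wildtype and 6446 to 7026 CPM in the mutant. The other 9 progenitor markers were not called, the median of the list was -0.11 on the log2 scale, and *Ccnd1* and *Fgf15* alone went from 2658 to 1446 and from 1137 to 701 CPM on average. All 10 markers of retinal ganglion cells (RGCs) were called lower, from 1904 to 2148 CPM in the wildtype to 560 to 740 CPM in the mutant. In contrast, all 9 ciliary margin markers tested were called higher (549 to 554 against 1037 to 1057 CPM), as were 8 of 11 pigment epithelium markers (253 to 342 against 633 to 662 CPM, with *Rpe65* at 0 to 4 reads), all 10 lens markers (176 to 454 against 3560 to 8581 CPM) and all 10 macrophage and microglia markers (78.6 to 86.4 against 260 to 315 CPM). Of the other markers, 7 of 9 for endothelium, 3 of 6 for erythroid cells, 7 of 10 for periocular mesenchyme and 9 of 11 for skeletal muscle were called higher, and 1 endothelial marker was called lower. Between the mutant libraries, lens markers summed to 8581 and 3560 CPM, ciliary margin markers to 1037 and 1057 CPM and pigment epithelium markers to 633 and 662 CPM, where *Slc16a1* was at 81.3 and 85.6 CPM and *Slc16a12* at 22.9 and 22.1 CPM. The part of these cells in the changes of *Ldha*, *Slc16a3*, *Slc16a1* and the genes above was not tested.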

How the data were processed

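RNA-seq of 2 wildtype and 2 Nrf1-CKO libraries was used. Per the labels and methods, alignment to mm10 used TopHat2 2.7.2 and reads per gene came from HTSeq. These whole-number counts were deposited without normalization. The processing notes in the labels also name DESeq and limma, and the annotation release is not given in the sources used here. The authors also deposited normalized values on a log2 scale, used only as an alternative. Columns were matched to samples by genotype and replicate number. The header line holds extra tab characters, so its 4 names (mutant and control, each numbered) were read onto the value columns in their order. The 5 HTSeq summary rows, 74.0% to 75.0% of all entries, stayed out of library sizes and tests. Most were alignments that were not unique, which lowers genes with close copies.

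Genes were filtered with filterByExpr (minimum count 10), scaled with TMM factors and tested by quasi-likelihood in edgeR 4.0.16 (R 4.3.3), with p-values adjusted by the Benjamini-Hochberg method over 15762 genes. Standard errors were derived from the fold change and its F statistic. The study's methods name Cuffdiff, which needs aligned reads, so its thresholds were applied to the count test. The script was tested on simulated data. Gene coordinates and exon lengths came from GENCODE for GRCm38 and promoter windows from RefSeq (GRCm38.p6). The members, lists and alternatives were chosen with earlier results of these data known. Named were the 7 members, up to 4 called genes per list and direction, direct partners of members (*Emb*, *Nptn*, *Mpc1*, *Mpc2*, *Pdk1*), and the 3 nearest profiles of each called member. Beyond this rule, *Nrf1*, *Hif1a*, *Eno1*, *Gapdh* and some single markers were named. Alternatives were DESeq2 1.42.0, other scalings, filters and thresholds, the replicate number as a block, limma 3.58.1 on the deposited values, other lengths for the shares, and each library left out. Nothing in the labels ties the libraries to separate litters, so p-values speak for these libraries only. The quasi-likelihood fit in edgeR draws part of the variance of each gene from other genes. Intervals therefore cover counting error and a spread estimated partly across genes, with 2 libraries per genotype.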

Additional observations from a re-analysis of the deposited data

How the results depend on the processing

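*Ldha* and *Slc16a3* were called lower under every alternative run. The number of the 7 genes called higher went from 0 to 1 with upper-quartile scaling, where *Slc16a1* reached 0.51, and ranged from 0 to 1 with each library left out, where *Slc16a1* lay between 0.37 and 0.59. *Slc16a7* lay between -0.49 and 0.014, so that its direction turned without Nrf1-CKO replicate 2. The numbers of list genes called lower and higher, 6 and 11, were 3 and 7 with limma on the deposited normalized values, and 5 to 6 and 9 to 12 with each library left out. Over all tested genes, 3292 were called, and 1668 with limma on the deposited values. On those values *Pdk2* (0.42), *Pdk4* (0.29), *Pdp1* (-0.45), *Hk1* (-0.45), *Pgk1* (-0.41), *Aldoc* (0.31) and *Ppargc1b* (0.45) were no longer called. Those values level off at 8.13 for 0 reads, and the changes of *Slc16a10*, *Slc16a6* and *Pgam2* were smaller but still called. Without length correction the rise in the share of *Ldhb* was 5.80 percentage points instead of 8.88, because *Ldhb* is the shorter transcript. With each library left out it lay between 7.05 and 10.7, and the rise in the share of *Slc16a1* between 22.6 and 26.6. With the replicate number as a block, *Slc16a3* stayed at -1.11 and no call among the 7 genes changed, and same-numbered libraries did not deviate together (r = -0.0050). Apart from the construction of the length alternative, the cause was not tested. Depth limits *Slc16a7* and *Slc16a8*, and 2 libraries per genotype limit every interval. When a library is left out, the single library left of that genotype is assumed to vary like the other genotype.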
